A study of Rattus norvegicus with 74 samples.

Results

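The libraries described here come from whole red gastrocnemius, a hindlimb muscle, and compare rats trained on a treadmill (ExT) with rats that did not run (Sed). They are the 30 whole-muscle libraries (SM) among the 74 libraries of the series, chosen by their titles: 15 SM_ExT and 15 SM_Sed. The study also sequenced left ventricle (LV, 14 libraries, used below for a comparison) and mitochondria isolated from the same muscle, which were not used here. All rats were wild-type male Wistar Kyoto, 9 weeks old at sampling, and all drank water with 8% deuterium oxide. Training began at 5 weeks of age and lasted 4 weeks, with motorised treadmill runs on 5 days of each. Sessions lengthened from 20 to 60 min in the first week at 15 m/min, and then lasted 60 min at 20 m/min. Sed rats were put on a still treadmill for equal time. The inner red portion of the muscle was taken 24 h after the last session and frozen, so the values describe muscle at rest after training and not the hours just after a run. Rats were housed in pairs, and the labels do not say which rats shared a cage. In bulk tissue, more cells of a type and more RNA per cell cannot be told apart.

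The rats carry numbers from 2 to 32 in the labels, which give no meaning to the numbers. Libraries of rats 2 to 16 (7 ExT, 7 Sed) and of rats 17 to 32 (8 ExT, 8 Sed) separated on the second principal component, which held 10.1% of the variance, with mean scores of -10.6 and 9.31. Between the ranges 1762 of 13570 tested genes differed (13% of all genes tested, edgeR quasi-likelihood test, adjusted p under 0.05). The range was a term in the training model by design, and values within each range follow those over all rats. The first component (19% of the variance) had a mean score of 7.04 in ExT and -7.04 in Sed, with overlapping libraries. Among rats 2 to 16 ExT libraries scored 6.401 to 29.96 and Sed libraries -37.45 to 10.23. Among rats 17 to 32 ExT libraries scored -13.27 to 13.9, within the Sed span of -29.79 to 22.35. The lowest and highest libraries, Sed rat 8 and ExT rat 10, also had the lowest and highest log2 ratio of the myosin genes Myh7 and Myh4 (-4.573 and -0.434). Total counts ran from 19477976 to 39401323 per library, and 3 counts, taken as the least a library can show, equal 0.0761 to 0.154 CPM (counts per library after scaling to a common total). Skeletal muscle fibre markers held 155076 to 286222 CPM in every library, and 6 of 10 heart markers did not pass the filter on low counts. Blood, nerve and tendon markers were also present and are given beside the results they move with.

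Endurance training acts on skeletal muscle through repeated contraction. Its known effects in red, oxidative muscle are more mitochondria, more capillaries, greater use of fatty acids and a shift among the myosin heavy chains from the fastest towards slower forms. Messenger RNAs that encode these proteins often rise for only some hours after a session. Levels one day after the last session therefore reflect a muscle between bouts.

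Few genes passed the test for training, and those that did changed mostly by small amounts. Of 13570 genes tested, 45 passed an adjusted p of 0.05 (0.332% of all genes tested), 39 of them higher in ExT (0.287%) and 6 lower (0.0442%). Only 2 of the 45, Tcte1 and Slc29a4, changed by at least 1 on the log2 scale. The log2 fold change had a median of -0.01 across the genes, and 2066 genes (15.2%) had an unadjusted p under 0.05, 1074 of them higher and 992 lower. For no called gene did the 15 ExT libraries lie wholly apart from the 15 Sed libraries. For 22 of the 39 higher genes, however, all 15 ExT libraries lay above the Sed median, and for 2 of the 6 lower genes all 15 lay below it.

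The number of called genes depended on single libraries and on the model. With 1 library left out in turn, 14 to 128 genes passed. Leaving out Sed rat 23 gave 128 and Sed rat 29 gave 96. Fewer than 31 passed without Sed rats 4 (19), 7 (16), 8 (14), 12 (19) or 24 (29), and without ExT rats 5 (25), 6 (17), 10 (17), 13 (27), 14 (23), 25 (26) or 27 (20). In all 30 such fits 14 genes were called: Tcte1, Prom2, Lgr6, Oplah, Hyal3, Ndrg4, Raver2, Zim1, Got1, St3gal5, Cox7a1, Rbpms2, Wdr54 and Ppip5k1. DESeq2 called 179 genes (1.32%), all 45 among them, and 28 were called without the range term.

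**Figure D1:**
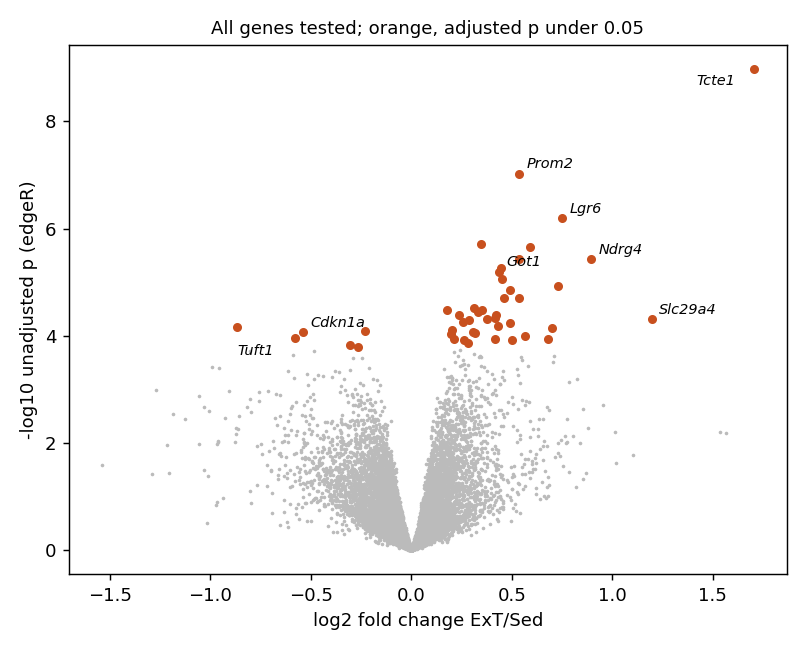
Log2 fold change of ExT over Sed (x axis) against the minus log10 of the unadjusted p from edgeR (y axis) for the 13570 genes tested, with the 45 called genes in orange. Of the called genes 39 lie to the right of 0 and 6 to the left, and Tcte1 stands farthest right and highest.

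Tcte1 encodes a component of the dynein regulatory complex of cilia and sperm tails. It was measured at 0.566 to 2.84 CPM in the Sed libraries, with a median of 1.27, and at 2.76 to 7.68 CPM in the ExT libraries, with a median of 4.45. Of the 15 ExT libraries, 14 were above the highest Sed library. The log2 fold change was 1.70 ± 0.20 (SE, adjusted p = 1.42e-05, edgeR), which is 3.26-fold. Tcte1 was also the only gene called in both ranges, at 2.18 ± 0.35 in rats 2 to 16 and 1.34 ± 0.17 in rats 17 to 32. Of 30 listed axonemal and ciliary genes 29 were in the table and 11 passed the filter on low counts. Tcte1 was the only one called, and the list had a median log2 fold change of 0.01. RefSeq places Tmem151b over the same stretch, and Tmem151b did not pass the filter. The strand setting of the counting is not given in the sources used here, so reads of overlapping genes cannot be assigned with certainty. In all 19 of the 43 called genes found in RefSeq overlap another gene, 7 of them a tested one, and no tested neighbour was called.

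Lgr6, a receptor for R-spondins that strengthens Wnt signalling, rose by 0.75 ± 0.12 (SE) on the log2 scale (adjusted p = 0.00292, edgeR). Its Sed libraries ran from 2.02 to 5.89 CPM with a median of 4.02, and its ExT libraries from 5.26 to 9.51 CPM with a median of 6.33. All 15 ExT libraries were above the Sed median, and 9 above the highest Sed library. Prom2, a cholesterol-binding glycoprotein of membrane protrusions, rose by 0.54 ± 0.08 (adjusted p = 0.000649, edgeR), from a Sed median of 3.86 to an ExT median of 5.53 CPM. The arms overlapped, with 12 of 15 ExT libraries above the highest Sed library at 4.95 CPM. Ndrg4, a member of the N-myc downstream-regulated family, had Sed values of 2.04 to 4.85 CPM (median 2.82) and ExT values of 2.31 to 9.01 CPM (median 5.13), with 11 ExT libraries above all Sed libraries. Its log2 fold change was 0.89 ± 0.16 (adjusted p = 0.00724, edgeR). Slc29a4, a transporter of monoamines and nucleosides, is the other gene past 1, at 1.20 ± 0.26 (adjusted p = 0.0282, edgeR). Its levels were low, at 0.0902 to 0.590 CPM in Sed and 0.329 to 1.77 CPM in ExT. The lowest value, in Sed rat 8, lay below the 3-count floor of that library, 0.134 CPM.

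**Figure D2:**
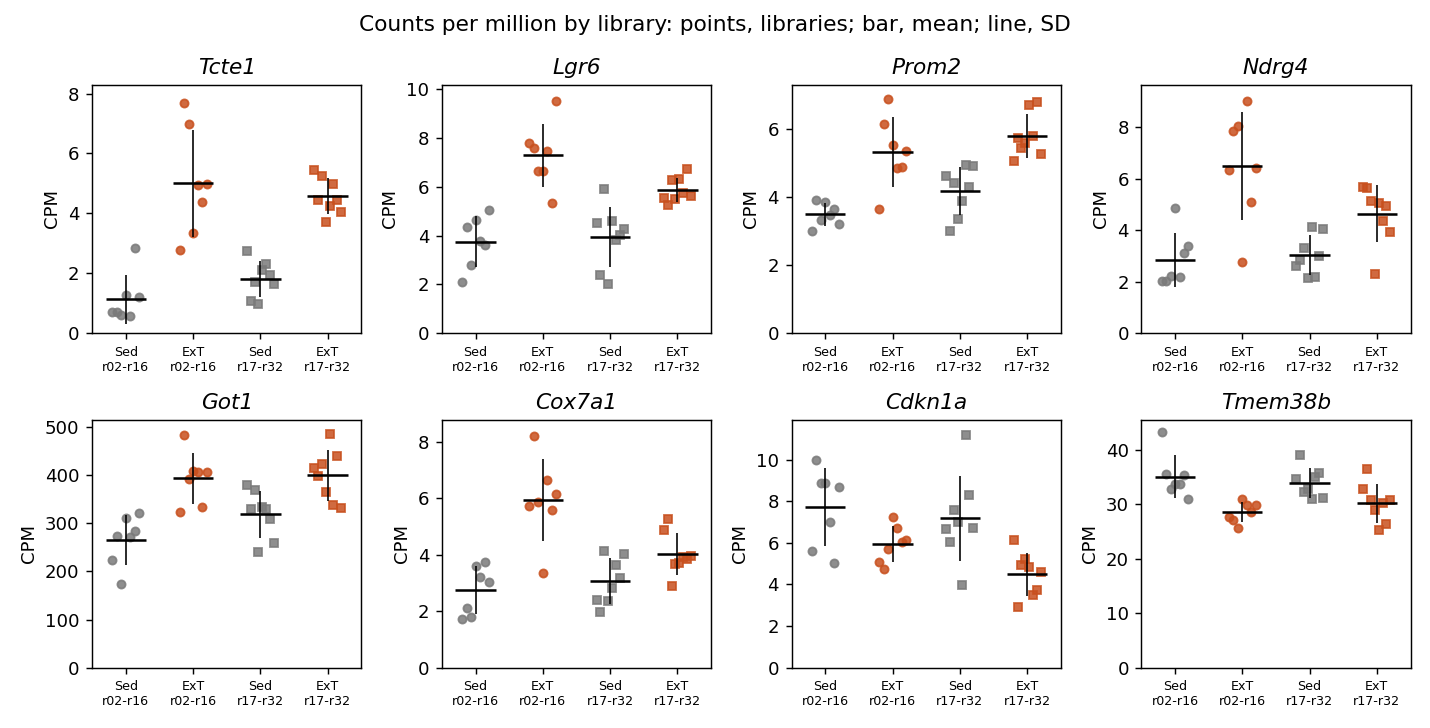
CPM (y axis, linear, from 0) of 8 called genes in each library, split by arm and rat-number range (x axis), with the mean as a bar and the SD as a line. Tcte1, Lgr6, Prom2, Ndrg4, Got1 and Cox7a1 have higher ExT means in both ranges, and Cdkn1a and Tmem38b have lower ones.

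Several called genes encode enzymes or mitochondrial proteins. Got1, the cytosolic aspartate aminotransferase of the malate-aspartate shuttle, was the most abundant of the called genes. Its Sed libraries ran from 174 to 380 CPM with a median of 309, and its ExT libraries from 323 to 485 CPM with a median of 407. All 15 ExT libraries were above the Sed median, and the log2 fold change was 0.44 ± 0.08 (SE, adjusted p = 0.00962, edgeR). Dlat, the acetyltransferase subunit of pyruvate dehydrogenase, rose by 0.20 ± 0.04 (adjusted p = 0.0358), from a median of 115 to 130 CPM. Again all 15 ExT libraries were above the Sed median, with 3 above the highest Sed library. Cox7a1, the muscle form of a cytochrome c oxidase subunit, was counted at only 1.71 to 4.14 CPM in Sed and 2.90 to 8.19 CPM in ExT, and rose by 0.73 ± 0.14 (adjusted p = 0.0146). RefSeq places Capns1 and Rps24-ps2 over Cox7a1. Capns1 had a log2 fold change of 0.11 ± 0.06 and was not called, and Rps24-ps2 was not among the genes tested. Spg7, a subunit of a protease of the inner mitochondrial membrane, rose by 0.18 ± 0.04, and Rtn4ip1, a mitochondrial oxidoreductase, by 0.32 ± 0.07. Pfkl, the liver form of phosphofructokinase, rose by 0.35 ± 0.07 from a median of 4.29 CPM. Oplah, the 5-oxoprolinase of glutathione turnover, rose by 0.34 ± 0.06, with 11 ExT libraries above the highest Sed library at 62.3 CPM. Ppip5k1, a kinase that makes inositol pyrophosphates, rose by 0.46 ± 0.09, and St3gal5, which makes the ganglioside GM3, by 0.45 ± 0.09. Ppat, the first enzyme of purine synthesis, fell by 0.26 ± 0.06 (adjusted p = 0.0483), and all 15 ExT libraries lay below its Sed median of 28.1 CPM.

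A further group of called genes is known from nerve, synapse or excitable membranes; the grouping was made after the calls were seen and carries no test. Nfasc, an adhesion protein of nodes of Ranvier, rose by 0.43 ± 0.09 (SE, adjusted p = 0.0328, edgeR), with 4.24 to 7.68 CPM in Sed and 5.56 to 8.73 CPM in ExT. Dhh, the hedgehog ligand made by Schwann cells, rose by 0.68 ± 0.16 (adjusted p = 0.0394), from a median of 1.11 to 1.66 CPM. Hcn2, a pacemaker channel, rose by 0.49 ± 0.10, from a median of 17.6 to 27.3 CPM, and Lynx1, a modulator of nicotinic receptors, by 0.24 ± 0.05. Syngr1, a synaptic vesicle protein, rose by 0.31 ± 0.07, and Lgi3, a secreted leucine-rich repeat protein, by 0.50 ± 0.12. For Nfasc, Dhh, Hcn2, Syngr1 and Lgi3 all 15 ExT libraries lay above the Sed median.

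Markers of Schwann cells and nerve were higher in ExT as a list, without a called member. Of 13 markers 11 were tested, all 11 had a log2 fold change above 0 and 5 had an unadjusted p under 0.05. Their median was 0.55, against -0.01 over all genes. The summed level of the list was 33.2 to 180 CPM in Sed (median 65.4) and 58.2 to 226 CPM in ExT (median 128). Sox10, the Schwann cell transcription factor, had 0.59 ± 0.28 (SE) on the log2 scale. With the summed nerve markers as a further term, 5 genes were called in place of 45. Tcte1, Prom2, Lgr6 and Raver2 were the ones shared. Under that term Dhh had a log2 fold change of 0.44 and Nfasc of 0.33, and Got1 had 0.36 (adjusted p = 0.112, edgeR). Tendon markers moved the other way. All 12 were below 0, with a median of -0.87 and 5 at an unadjusted p under 0.05, and none was called. Their sum was 81.6 to 782 CPM in Sed (median 335) and 96.4 to 379 CPM in ExT (median 267). With their sum as a term 23 genes were called, 22 of them among the 45. Both sums were taken from the same counts, so genes that follow a sum lose part of their difference by construction. The nerve sum also differed between the arms, so a call can be lost while the log2 fold change stays similar. These lower counts are therefore no separate result about nerve or tendon. The part that nerve or tendon in the dissected piece has in the 45 calls was not tested further.

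The other called genes include membrane, signalling and RNA-binding proteins. Hyal3, of the hyaluronidase family, rose by 0.59 ± 0.10 (SE), with 8.48 to 24.9 CPM in Sed and 17.4 to 27.9 CPM in ExT, and Raver2, an RNA-binding protein, by 0.54 ± 0.10. Hyal1 and Naa80 lie over Hyal3 in RefSeq, and neither passed the filter. Zim1, an imprinted zinc finger gene, rose by 0.45 ± 0.08, from a median of 17.1 to 22.3 CPM. Itgav, the integrin alpha V chain, rose by 0.20 ± 0.04, and Qsox1, which forms disulfide bonds in secreted proteins, by 0.29 ± 0.06. Rapgef4, a cyclic AMP-activated exchange factor for Rap1, rose by 0.27 ± 0.06. The remaining higher genes, Rbpms2, Wdr54, Slc12a7, Tbkbp1, Tm6sf1, Endod1, Flrt2, Mapk8ip1, Rab15, Bcar3, Pacsin2, Prickle1 and AABR07029596.1, had log2 fold changes from 0.21 to 0.70.

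The 6 genes that fell include a cell cycle inhibitor and a channel of the sarcoplasmic reticulum. Cdkn1a, which encodes the cyclin-dependent kinase inhibitor p21, ran from 3.97 to 11.2 CPM in Sed (median 7.02) and from 2.91 to 7.24 CPM in ExT (median 5.09). In 14 of 15 ExT libraries it was below the Sed median, and its log2 fold change was -0.54 ± 0.12 (SE, adjusted p = 0.0350, edgeR). It was the only 1 of 30 cell cycle genes called. Tmem38b, the potassium channel TRIC-B that balances calcium release, ran from 30.9 to 43.3 CPM in Sed (median 33.8) and from 25.2 to 36.5 CPM in ExT (median 29.8). In 12 ExT libraries it was below the lowest Sed library, and its log2 fold change was -0.23 ± 0.05 (adjusted p = 0.0350). Tuft1, tuftelin, first described in tooth enamel, fell by 0.58 ± 0.13, and Zfp51, a zinc finger gene, by 0.30 ± 0.07. AABR07062138.2, an unnamed protein-coding locus near the detection limit at 0.143 to 0.783 CPM over all libraries, fell by 0.87 ± 0.19. Cdkn1a, Tmem38b, Tuft1, Zfp51, Ppat and AABR07062138.2 all lost the call with the nerve term, and also with the tendon term. Their log2 fold changes with the nerve term were -0.62 for Cdkn1a, -0.21 for Tmem38b, -0.47 for Tuft1, -0.29 for Zfp51, -0.21 for Ppat and -0.79 for AABR07062138.2, and with the tendon term -0.54, -0.23, -0.55, -0.31, -0.25 and -0.85.

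Promoters of the called genes, higher and lower ones together, were read for 4 motifs. RefSeq promoters (GRCr8, 250 bases before to 50 after the start) matched 37 of the 45 symbols. Both strands were searched. The CCAAT box (CCAAT) was in 29.7% of the called genes with a promoter and in 38.6% of the tested genes with one. The estrogen-related receptor element (TCAAGGTCA) was in 2 of the 37 (5.4%), Hcn2 and Tm6sf1, against 28 of 9835 tested genes (0.285%). With only 2 genes this share is imprecise, and no motif share was tested. The cyclic AMP element (TGACGTCA) was in none, against 3.21%. The GC box (GGGCGG) was in 64.9% of called and 63.6% of tested genes. No motif contains another. The promoters shown are those of the gene with the largest change, of the most abundant called gene, of the called respiratory chain gene and of a gene with the estrogen-related receptor element. They lie at chr9:22970342-22970641 (minus strand) for Tcte1, chr1:252329822-252330121 (minus strand) for Got1, chr1:94568966-94569265 (plus strand) for Cox7a1 and chr7:10639408-10639707 (minus strand) for Hcn2. Capitals mark the CCAAT box in either direction in the first 3, with 6 matches in Got1, and the estrogen-related receptor element, read on the other strand, in Hcn2.
Tcte1: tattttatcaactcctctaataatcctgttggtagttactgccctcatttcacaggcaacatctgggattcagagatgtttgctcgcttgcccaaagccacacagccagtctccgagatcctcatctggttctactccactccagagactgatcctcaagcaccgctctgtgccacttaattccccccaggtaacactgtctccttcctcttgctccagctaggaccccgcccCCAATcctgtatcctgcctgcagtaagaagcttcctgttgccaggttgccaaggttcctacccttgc
Got1: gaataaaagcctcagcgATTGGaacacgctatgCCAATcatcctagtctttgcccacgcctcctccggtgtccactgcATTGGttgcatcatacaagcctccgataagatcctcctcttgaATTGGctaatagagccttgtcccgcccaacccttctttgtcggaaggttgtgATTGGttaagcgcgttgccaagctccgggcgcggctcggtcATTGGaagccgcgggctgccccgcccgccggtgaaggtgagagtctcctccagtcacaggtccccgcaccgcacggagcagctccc
Cox7a1: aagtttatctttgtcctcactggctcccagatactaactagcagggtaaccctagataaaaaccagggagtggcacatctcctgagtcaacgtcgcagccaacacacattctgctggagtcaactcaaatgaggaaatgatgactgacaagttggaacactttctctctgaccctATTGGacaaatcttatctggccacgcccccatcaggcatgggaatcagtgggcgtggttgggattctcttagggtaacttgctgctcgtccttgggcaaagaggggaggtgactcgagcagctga
Hcn2: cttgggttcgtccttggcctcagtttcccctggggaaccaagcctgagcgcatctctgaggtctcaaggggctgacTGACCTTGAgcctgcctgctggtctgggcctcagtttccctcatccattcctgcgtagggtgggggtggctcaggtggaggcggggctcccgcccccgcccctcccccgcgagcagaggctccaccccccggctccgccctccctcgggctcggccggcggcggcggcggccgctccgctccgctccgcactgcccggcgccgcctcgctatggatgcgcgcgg

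Genes of oxidative metabolism were mostly above 0, and 2 were called. The counts at an unadjusted p under 0.05 are read against 7.91% higher and 7.31% lower over all genes. Of 32 tested genes of fatty acid uptake and oxidation, 29 had a log2 fold change above 0, against 47.3% of all genes, and 13 had an unadjusted p under 0.05, all higher. Their median was 0.21 and none was called. Lipe, hormone-sensitive lipase, had 0.33 ± 0.09 (SE, adjusted p = 0.0963, edgeR), and Pnpla2, the main triglyceride lipase of muscle, had 0.38 ± 0.11 (SE, adjusted p = 0.115, edgeR), with all 15 ExT libraries above the Sed median of 79.6 CPM. Of 28 genes of the TCA cycle and pyruvate entry, 26 were above 0 and Dlat was called, with a median of 0.10. Cs, citrate synthase, had a log2 fold change of 0.22 ± 0.05 (adjusted p = 0.0677), from a Sed median of 372 to an ExT median of 430 CPM, with all 15 ExT libraries above the Sed median. Of 34 nuclear subunits of complex I, 25 were above 0 (median 0.07), and of 36 of complexes II to V, 27 (median 0.08, Cox7a1 called). Ndufv1 and Ndufa9, both of complex I, had 0.18 ± 0.06 and 0.19 ± 0.08. Cox4i1 of complex IV had 0.16 ± 0.07 (adjusted p = 0.240) and Cycs, cytochrome c, 0.05 ± 0.07. The regulators Ppargc1a (PGC-1 alpha) and Tfam had 0.18 ± 0.06 (adjusted p = 0.146) and 0.02 ± 0.06, and of 25 regulators of mitochondrial biogenesis none was called. Of 69 mitochondrial ribosomal proteins none was called either, with a median of 0.02, Mrpl44 at 0.17 ± 0.05 and Mrps35 at 0.17 ± 0.06.

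No gene on the list of glycolysis and glycogen was called; Pfkl, given above, is not on it. Of its 25 genes 7 were above 0 (median -0.14), and 5 were higher and 3 lower at an unadjusted p under 0.05. Gys1, muscle glycogen synthase, had 0.21 ± 0.05 (SE, adjusted p = 0.0856, edgeR), Hk1, hexokinase 1, had 0.22 ± 0.06 (adjusted p = 0.114), and Hk2, hexokinase 2, had 0.22 ± 0.07 (adjusted p = 0.123). Slc2a4, the insulin-responsive glucose transporter, had 0.20 ± 0.07. Ldha, the muscle lactate dehydrogenase chain, had -0.30 ± 0.10 (adjusted p = 0.153). Pdk4 and Ucp3, both known to rise with fasting, had 0.24 ± 0.29 and -0.21 ± 0.23, with Sed libraries spread from 86.1 to 630 CPM for Pdk4.

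Vessel and matrix genes also had no called member. Of 24 endothelial and angiogenic genes, 19 were above 0, and 13 were higher and 2 lower at an unadjusted p under 0.05 (median 0.18). Epas1, a hypoxia-inducible factor of endothelium, had 0.29 ± 0.08 (SE, adjusted p = 0.0932, edgeR), Flt1, a receptor of VEGF, 0.30 ± 0.09 (adjusted p = 0.119), and Vegfa itself 0.19 ± 0.09 (adjusted p = 0.290). Of 11 pericyte and smooth muscle genes 9 were above 0 (median 0.13), led by the smooth muscle actin Acta2 at 0.50 ± 0.15 and the smooth muscle myosin Myh11 at 0.40 ± 0.14. Of 32 collagens and matrix genes 7 were above 0 (median -0.14), with Col12a1 at -0.62 ± 0.25 and Timp1 at -0.29 ± 0.13. Of 20 tested immune cell genes 1 was above 0 (median -0.26), with Ptprc, the CD45 antigen of leukocytes, at -0.27 ± 0.09 (adjusted p = 0.144) and the complement gene C1qa at -0.44 ± 0.16. The tendon markers given above also lay below 0, and their part in the matrix and immune values was not tested. Blood markers had a median of 0.18 (0.47 in rats 2 to 16 and -0.11 in rats 17 to 32), with a summed level of 72.0 to 199 CPM in Sed and 66.2 to 212 CPM in ExT, and Hbb-bs listed at 0 in every library. Cytosolic ribosomal proteins lay mostly below 0, with 4 of 68 above it, 27 lower at an unadjusted p under 0.05 and a median of -0.10. Rpl31 had -0.21 ± 0.06 (adjusted p = 0.113) and Rpl38 -0.20 ± 0.06.

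Stress, clock and atrophy genes did not pass the test. Of 24 immediate early genes 5 were above 0, 8 were lower at an unadjusted p under 0.05, and the median was -0.19. Egr1 had -0.80 ± 0.19 (SE, adjusted p = 0.0542, edgeR), from a Sed median of 16.8 to an ExT median of 8.15 CPM, and was below the Sed median in 14 of 15 ExT libraries. Junb had -0.32 ± 0.09 (adjusted p = 0.106), and Fos had -1.13 ± 0.35 (adjusted p = 0.142), with Sed libraries from 5.11 to 60.0 CPM and ExT libraries from 4.01 to 25.5 CPM. Mrln, the calcium pump inhibitor myoregulin, had -0.49 ± 0.11 (adjusted p = 0.0542). Mstn, the growth inhibitor myostatin, had -0.39 ± 0.28, and the ubiquitin ligases Fbxo32 and Trim63 had 0.13 ± 0.10 and -0.03 ± 0.07. Of 20 tested clock genes none was called, and 2 were higher and 4 lower at an unadjusted p under 0.05. Npas2, a partner of Bmal1, had -0.49 ± 0.13 (adjusted p = 0.0856) and was below the Sed median in 14 of 15 ExT libraries. Per3 had 0.34 ± 0.11, Per1 -0.29 ± 0.17, Dbp 0.32 ± 0.11 and Nr1d1 -0.04 ± 0.31.

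The other lists had no called member at an adjusted p under 0.05 (edgeR). Among 27 tested genes reported for endurance training, 23 were above 0 (median 0.20). At an unadjusted p under 0.05, 14 of them were higher and 1 lower. Fast-fibre contractile genes had 2 of 13 above 0 (median -0.25), with 1 higher and 7 lower at that threshold. All 13 slow-fibre contractile genes were above 0 (median 0.31), and none passed it. Over all genes 7.91% were higher and 7.31% lower. Of 13 tested genes of the neuromuscular junction and synapse 9 were above 0, with a median of 0.17. Lrp4, the agrin receptor, had 0.20 ± 0.06 (SE), and Chrnb1, a subunit of the acetylcholine receptor, 0.21 ± 0.08. Among genes of glucose uptake and insulin signalling Slc2a1, the basal glucose transporter, had 0.50 ± 0.14. Among those of lactate and ketone use Oxct1, which activates ketone bodies, had 0.36 ± 0.11. The peroxiredoxin Prdx2 had 0.26 ± 0.08 and thioredoxin reductase Txnrd1 0.15 ± 0.05. In fatty acid synthesis the desaturase Scd2 had 0.29 ± 0.08 and malic enzyme Me1 -0.28 ± 0.10. The small heat shock protein Hspb6 had 0.42 ± 0.16 and the mitochondrial chaperone Hspa9 0.15 ± 0.07.

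Lists of growth and quality control were near 0. The median was 0.02 for muscle mass and atrophy, with the transcription factor Klf15 at 0.24 ± 0.08 (SE) and the translation repressor Eif4ebp1 at -0.23 ± 0.09. It was 0.05 for satellite cell and myogenic genes, with the laminin receptor Itga7 at 0.27 ± 0.08 and Calcr, a marker of quiescent satellite cells, at 0.41 ± 0.14. It was 0.05 for mitochondrial dynamics and mitophagy, with Phb2 at 0.16 ± 0.07 and the autophagy gene Becn1 at -0.13 ± 0.04. For the unfolded protein response it was -0.01, with Herpud1 at 0.31 ± 0.10 and Xbp1 at -0.10 ± 0.05. Genes of excitation-contraction and calcium had a median of -0.11. Muscle-secreted factors had one of -0.06, with the growth factor Vegfb at 0.26 ± 0.09. Among phosphate buffering and oxygen store genes the mitochondrial creatine kinase Ckmt2 had 0.29 ± 0.12, the creatine-making enzyme Gamt -0.20 ± 0.07 and myoglobin Mb 0.31 ± 0.16. Lpl, lipoprotein lipase, had 0.30 ± 0.16.

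**Figure D3:**
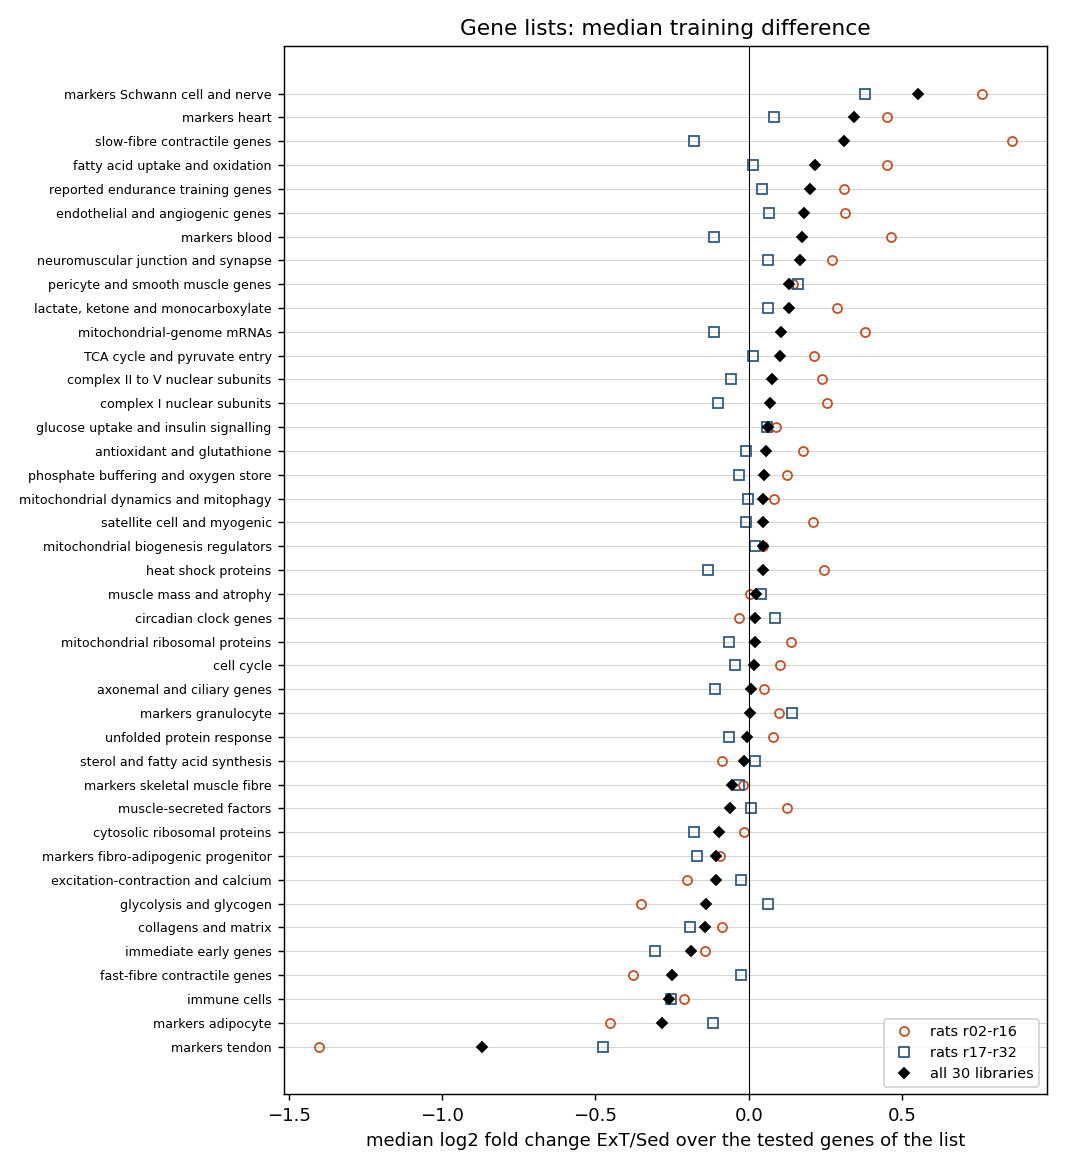
Median log2 fold change of ExT over Sed (x axis) over the tested genes of each list (y axis), for all 30 libraries (diamonds), rats 2 to 16 (circles) and rats 17 to 32 (squares). Slow-fibre contractile genes lie at 0.86 (circle) and -0.18 (square), and fatty acid genes at 0.45 and 0.01.

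More genes were called among rats 2 to 16 than among rats 17 to 32, while the edgeR test of the difference itself called none. Among rats 2 to 16, 396 of 13423 genes were called (2.95% of all genes tested), 290 higher (2.16%) and 106 lower (0.79%). Among rats 17 to 32, 1 of 13662 was called (0.00732%), Tcte1. At an unadjusted p under 0.05 the counts were 3110 (23.2%) and 822 (6.02%). The count in the earlier range moved between 88 and 1518 as 1 library was left out. It was 1518 without Sed rat 11, 125 without Sed rat 4, 134 without Sed rat 7, 129 without Sed rat 8, 213 without Sed rat 12, 105 without ExT rat 5, 211 without ExT rat 6 and 88 without ExT rat 10. In the later range it was 1 in each of the 16 fits. Across 13370 genes tested in both, the log2 fold changes of the ranges had a Spearman rho of 0.106, over genes that are not independent, and 53.7% had the same sign. A test of the difference between ranges called no gene (0% of all genes tested, edgeR, smallest adjusted p = 0.170), with 1807 genes (13.3%) at an unadjusted p under 0.05, and DESeq2 called 56 of the 6203 genes to which it gave an adjusted p (0.903%).

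Of the 45 genes called over all libraries, 44 were tested in both ranges and had the same sign in both, and 42 had the larger change in the earlier range. They were called with both ranges in the fit, so this describes them and does not test them. Their median absolute log2 fold change was 0.54 in rats 2 to 16 and 0.32 in rats 17 to 32. Over all genes it was 0.12 and 0.08. Cox7a1 had 1.11 ± 0.20 (SE) among rats 2 to 16 and 0.40 ± 0.16 among rats 17 to 32, and Slc29a4 had 1.94 ± 0.35 and 0.58 ± 0.30. Lgr6 had 0.95 ± 0.16 and 0.58 ± 0.16, Ndrg4 1.21 ± 0.25 and 0.62 ± 0.17, Got1 0.57 ± 0.12 and 0.32 ± 0.10 and Hcn2 0.63 ± 0.14 and 0.37 ± 0.14. Prom2 (0.62 ± 0.12 and 0.48 ± 0.11) and Raver2 (0.62 ± 0.17 and 0.48 ± 0.11) were less far apart. Oplah (0.37 ± 0.09 and 0.33 ± 0.08) was close to equal in both. Spg7 (0.18 ± 0.05 and 0.18 ± 0.06) was too. Cdkn1a had the larger change in the later range, at -0.37 ± 0.14 and -0.68 ± 0.17. For these 45 genes the smallest adjusted p of the difference between ranges was 0.248 (edgeR), and 12 had an unadjusted p under 0.05.

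**Figure D4:**
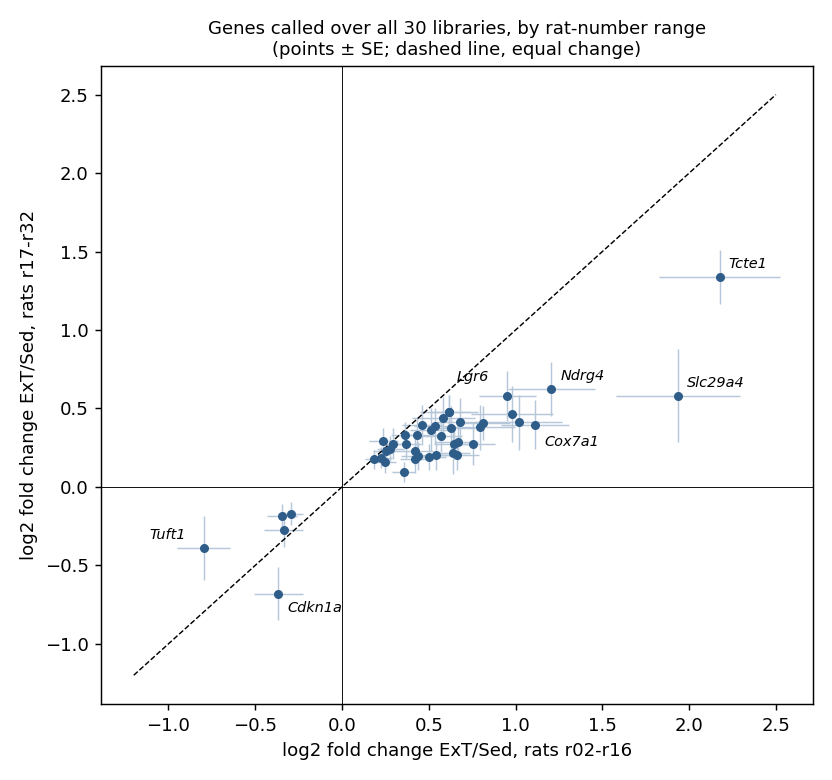
Log2 fold change of ExT over Sed with its SE in rats 2 to 16 (x axis) and in rats 17 to 32 (y axis) for the 44 called genes tested in both ranges, with a dashed line of equal change. The points lie in the same quadrant for both ranges, and most lie nearer 0 on the y axis than on the x axis.

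Medians of the fibre-type and oxidative lists lay apart between the ranges. In rats 2 to 16 the median log2 fold change was 0.86 for slow-fibre contractile genes, 0.45 for fatty acid genes, 0.38 for mitochondrial-genome mRNAs, 0.25 for complex I and -0.35 for glycolysis and glycogen. In rats 17 to 32 these medians were -0.18, 0.01, -0.11, -0.10 and 0.06. Markers of other cells differed between the ranges as well. Tendon markers had a median of -1.40 in rats 2 to 16 and -0.48 in rats 17 to 32, nerve markers of 0.76 and 0.38, and blood markers of 0.47 and -0.11. The median summed tendon level went from 335 CPM in Sed to 187 CPM in ExT among rats 2 to 16, against 279 and 294 CPM among rats 17 to 32. The part of these cells in the list values was not tested. Among the genes of the lists, 44 of 825 were called in the earlier range, 39 higher and 5 lower, against 2.95% of all genes. Ppargc1a rose there by 0.32 ± 0.08 (SE, adjusted p = 0.0363, edgeR) and Cs by 0.33 ± 0.08 (adjusted p = 0.0389). Ppara, a receptor that turns on fatty acid oxidation, rose by 0.48 ± 0.11 and Pnpla2 by 0.56 ± 0.13. Fndc5, the precursor of irisin, rose by 0.65 ± 0.14 (adjusted p = 0.0232), and Myh2, the myosin of fast oxidative fibres, by 0.96 ± 0.23 (adjusted p = 0.0411). Myh4, the myosin of the fastest fibres, fell by 0.76 ± 0.20 (adjusted p = 0.0487) and Egr1 by 1.07 ± 0.19. In the later range Ppargc1a had 0.06 ± 0.08, Cs 0.12 ± 0.07, Ppara 0.14 ± 0.11, Pnpla2 0.23 ± 0.16, Fndc5 0.18 ± 0.14, Myh2 0.16 ± 0.16, Myh4 -0.02 ± 0.20 and Egr1 -0.57 ± 0.30. None of these 8 was called in the later range.

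Myosin heavy chains show the fibre make-up of the piece that was sampled. Myh7 is the slow form, Myh2 the fast oxidative form and Myh4 the fastest; Myh1 was not analysed here, so shares are of the summed counts of the other 3. The Myh2 share was 3.80 to 28.6% in Sed (median 13.7%) and 14.6 to 35.2% in ExT (median 20.8%). Its mean was 14.9% ± 7.05 (SD, n = 15) and 22.1% ± 6.11 (SD, n = 15). The difference of 7.15 points passed the permutation test within ranges (two-sided, p = 0.00609, 0.0183 adjusted over the 3 shares). The Myh4 share had a mean of 71.1% ± 15.1 in Sed and 59.8% ± 12.3 in ExT, a difference of -11.4 points that did not pass after adjustment (permutation test, p = 0.0359, adjusted 0.0538). The Myh7 share was 13.9% ± 8.71 and 18.2% ± 7.63 (permutation test, p = 0.176). Libraries of both arms overlapped in all 3 shares.

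In rats 2 to 16 the Myh2 share was 10.7% in Sed and 23.6% in ExT (exact permutation test, 7 against 7, p = 0.00175, adjusted 0.00524), and the Myh4 share 77.8% and 54.5% (exact p = 0.00699, adjusted 0.0105). The mean Myh7 share was 10.4 points higher there, at 21.9% in ExT (exact permutation test, p = 0.0321, adjusted 0.0321). In rats 17 to 32 the Myh2 share was 18.6% and 20.7% (exact permutation test, 8 against 8, p = 0.508), and the Myh4 share 65.3% and 64.4% (exact p = 0.889). The Myh7 share was 16.1% and 14.9% (exact permutation test, p = 0.776, adjusted 0.889). Single Sed libraries stood at the ExT end. Sed rat 11 had a Myh7 share of 28.3%, Sed rat 23 of 29.3%, Sed rat 29 of 22.7% and Sed rat 32 of 22.1%. In contrast, Sed rats 4, 7, 8, 20 and 24 had 4.41%, 5.34%, 3.88%, 5.93% and 4.37%. Leaving out Sed rat 11 raised the count of called genes within rats 2 to 16, and leaving out Sed rat 23 or 29 raised that over all rats. Leaving out Sed rat 4 or 8 lowered both counts. Sed rats 32 and 20 went the other way among the tested list genes. There 3 were called without Sed rat 32 and 5 without Sed rat 20, against 4 with all libraries. A link between share and count was not tested.

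**Figure D5:**
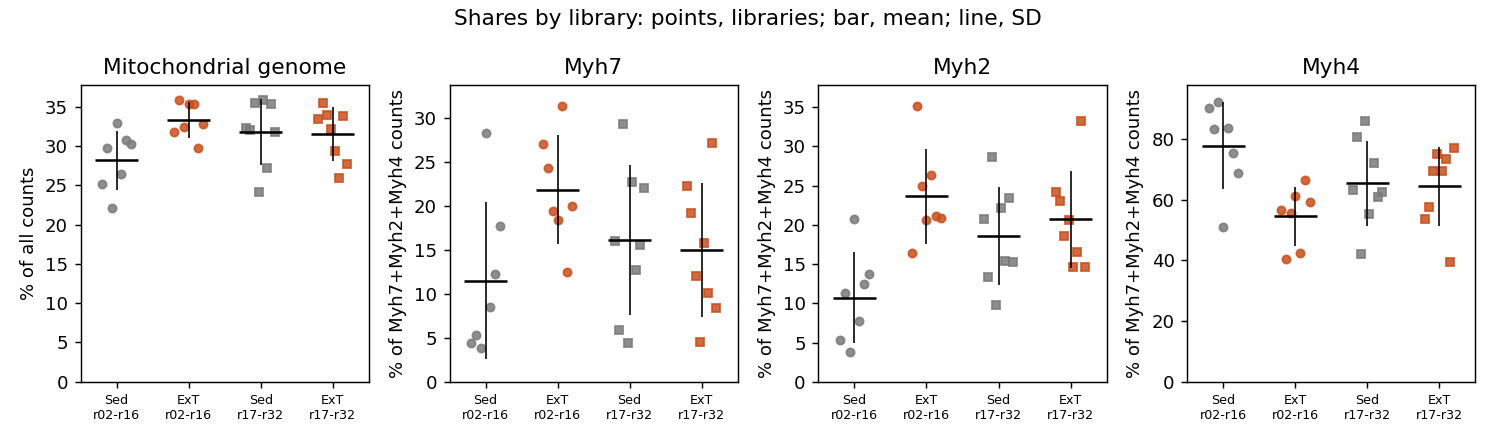
Percent of all counts from the mitochondrial genome, and percent of the summed Myh7, Myh2 and Myh4 counts from each (y axes, from 0), by library, arm and rat-number range, with the mean as a bar and the SD as a line. In rats 2 to 16 the Myh2 mean is 10.7% in Sed and 23.6% in ExT, and in rats 17 to 32 the means are 18.6% and 20.7%.

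Counts from the mitochondrial genome made up 22.1 to 35.9% of a Sed library (median 30.7%) and 25.9 to 35.9% of an ExT library (median 32.8%). The lowest library, Sed rat 8, had 22.066% (95% Wilson interval 22.048 to 22.083%, counting error only). The mean was 30.1% ± 4.28 (SD, n = 15) in Sed and 32.4% ± 2.99 (SD, n = 15) in ExT, a difference of 2.25 points (permutation test within ranges, two-sided, p = 0.111). In rats 2 to 16 it was 28.2% and 33.3% (exact permutation test, p = 0.00932), and in rats 17 to 32 31.8% and 31.5% (exact permutation test, p = 0.884). Of the 13 mitochondrial mRNAs 12 had a log2 fold change above 0, none was called, and the median was 0.11. Mt-cyb had 0.23 ± 0.09 (SE) and Mt-co1 0.19 ± 0.11.

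The log2 ratio of Myh7 to Myh4 followed many genes: as a term beside training and range it had 3065 called genes (22.6% of all genes tested, edgeR). With that term 14 genes were called for training (0.103%), 12 of them among the 45: Tcte1, Prom2, Lgr6, Oplah, Hyal3, Ndrg4, Raver2, Zim1, Got1, St3gal5, Cox7a1 and Ppip5k1. Tcte1 had 1.55 ± 0.18 (SE) with the term, Got1 0.34 (adjusted p = 0.0153) and Cox7a1 0.56 (adjusted p = 0.0131). The median of the slow-fibre genes went from 0.31 to -0.07, of the fatty acid genes from 0.21 to 0.08, of the TCA cycle genes from 0.10 to 0.04 and of complex I from 0.07 to 0.00. The ratio was taken from the same counts, so genes that follow it lose part of their difference by construction. These falls are therefore no separate result about training. Fibre make-up may itself change with training or with the place of the cut, and these cannot be told apart here.

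The left ventricle of 7 ExT and 7 Sed rats of the same study showed no called gene (0 of 14488, 0% of all genes tested, edgeR, smallest adjusted p = 0.804), with 855 (5.9%) at an unadjusted p under 0.05 and 1 called by DESeq2. By their numbers these rats are also among those of the muscle libraries. In each arm 6 of the 7 ventricle libraries came from the later range and 1 from the earlier range. In the later range muscle itself had 1 called gene, so the ventricle count is not a like-for-like match to the 45 muscle genes. Ventricle libraries came from another kit, and the difference between the tissues was not tested. Of the 45 muscle genes 42 were tested in the ventricle and 30 had a log2 fold change above 0. Over all genes tested in both tissues the ventricle median was 0.00, and the share above 0 was not counted. The 6 genes that fell in muscle were all below 0 in the ventricle as well, from -0.79 (AABR07062138.2) to -0.01 (Tmem38b). The 30 are therefore all genes that rose in muscle. Agreement in direction between the tissues was not tested. Tcte1 had -0.17 ± 0.37 (SE) there, Lgr6 0.30 ± 0.16, Ndrg4 0.24 ± 0.09, Got1 0.20 ± 0.09 and Cox7a1 -0.01 ± 0.13.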

How the data were processed

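Whole-muscle total RNA of 30 rats was measured, per the labels' protocols from 50 ng with a Zymo kit that depletes ribosomal RNA. The values are raw counts per gene that the authors deposited as one table of 30560 genes for whole muscle and one for left ventricle. Per the submitters' processing notes, FastQC 0.74, cutadapt 4.6, STAR 2.7.11a and HTSeq were used with build mRatBN7.2; the annotation version and strand setting are not given in the sources used here. Genes of near-identical copies or overlapping genes are therefore uncertain. Depth was 19477976 to 39401323 counts per library, and intervals and floors (3 counts) cover counting error only. Each library is 1 rat, and cage mates are not identified, so rats are treated as independent. Per the labels, the ventricle libraries were made from 100 ng of RNA with a TruSeq kit. No pair of libraries within an arm agreed within sampling noise.

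Counts were tested with edgeR 4.0.16 (R 4.3.3): TMM, filterByExpr, robust glmQLFit, quasi-likelihood F test, terms for rat range and training, Benjamini-Hochberg adjustment over all genes and a threshold of 0.05. Every adjusted p of a gene is from this test unless another tool is named. The SE is the log2 fold change divided by the root of F. Fits within a range, of the range, of the difference between ranges and of the ventricle used the same steps, the first and the last with no range term; limma 3.58.1 and DESeq2 1.42.0 were alternatives. CPM values are TMM-scaled. Shares were compared by permutation of arms within ranges (100000 resamples; exact within a range) with numpy, pandas and scipy in Python. The tests were checked on simulated data.

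The groups and gene lists were chosen with earlier results of these data known. The rule names the called genes, in each list its called genes or else the 2 of smallest p, and a set of training genes; some called genes and leads of marker lists are given only in counts; Cd36, Myh1 and Hspa1b of that set were not analysed here. Genes outside this rule, such as Sox10 and Tmem151b, were named after their values were seen. Terms for nerve and tendon markers, and leaving out libraries within a range, were chosen after seeing the data. Promoters are RefSeq's (GRCr8).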

Additional observations from a re-analysis of the deposited data

Results flagged for a closer look

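The difference between rats 17 to 32 and rats 2 to 16 in the training effect on library shares was tested by permuting the range labels within each arm, for 4 shares. For the Myh2 share the later effect minus the earlier one was -10.79 points (permutation test, p = 0.0207, adjusted 0.0479 over the 4). For the Myh4 share it was 22.31 points (p = 0.0240, adjusted 0.0479), from -23.3 points in the earlier range and -0.951 in the later. For the mitochondrial-genome share it was -5.451 points (p = 0.0403, adjusted 0.0526), and so did not pass after adjustment. The Myh7 share had -11.5 points (p = 0.0526). The mean Myh4 share of Sed rats was 77.8% (rats 2 to 16) and 65.3% (rats 17 to 32), and that of ExT rats 54.5% and 64.4%.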

How the results depend on the processing

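No paired analysis was possible because no rat number occurs in both arms. All 45 called genes kept their direction under each alternative that tested them, and 14 passed in all 30 fits with 1 library left out. The count of 45 became 28 without the range term, 14 with the Myh7 to Myh4 ratio, 5 with the nerve term, 23 with the tendon term, 179 by DESeq2, 396 in rats 2 to 16 and 1 in rats 17 to 32, and 14 to 128 with 1 library left out. It was 44 with RLE factors, 50 by library totals, 31 with no filter, 34 at a mean of at least 5 CPM, 49 without robust dispersion and 47 by limma-voom. Of 829 tested list genes 4 were called, and 2 without the range term, with no filter, with the fibre ratio or with the tendon term, 1 with the nerve term, 44 in rats 2 to 16, 1 in rats 17 to 32, 21 by DESeq2, and 2 to 11 with 1 library left out. With 1 library out, the count was 88 to 1518 in rats 2 to 16 and 1 in rats 17 to 32. DESeq2 called 56 genes for the difference between ranges and 1 in the ventricle, where edgeR called 0.

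The mitochondrial-genome difference was 5.16 points in rats 2 to 16 and -0.29 in rats 17 to 32, and 1.68 to 2.71 with 1 library left out (adjusted p 0.0498 to 0.199). The Myh7 difference was 10.4 points in rats 2 to 16 and -1.16 in rats 17 to 32, and 3.27 to 5.31 with 1 library out. The Myh2 difference was 2.11 points in the later range, without passing, and 6.21 to 8.13 with 1 library out. The Myh4 difference was -23.3 points in the earlier range, and passed (-11.4, adjusted p = 0.0491) when permuted over all rats. With 1 library out it was -13.4 to -9.85.

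Of 90 named genes not called, 12 changed sign. In rats 17 to 32 Mb had -0.049, Mt-co1 -0.048, Mstn 0.029, Tnni1 -0.074, Myh7 -0.081, Ucp3 0.26, Cycs -0.060 and Tfam -0.034. With the fibre ratio Tnni1 had -0.030, Myh7 -0.066, Cycs -0.00096, Tfam -0.014 and Nr1d1 0.047. Myh7 is itself part of that ratio. In rats 2 to 16 S100a9 had 0.038, Trim63 0.037 and Nr1d1 0.18. With the nerve term Pdk4 had -0.20 and Cycs -0.011. With 1 library left out Trim63 ranged from -0.074 to 0.0065 and Nr1d1 from -0.17 to 0.071. The causes were not tested.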
